A study of Mus musculus with 32 samples.

Results

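The 9 genes described here (Col1a1, Col1a2, Col3a1, Col6a1, Dcn, Lum, Sparc, Vim and Pdgfra) were chosen by name as genes of dermal fibroblasts and their matrix. All 9 were found among the 19970 gene names of 32 bulk libraries of mouse skin and of organoids grown from its epidermal stem cells, made by CEL-seq2, which reads each transcript near its 3′ end. They show which traces of dermal cells each skin tissue carried, and which of these genes epidermal organoids expressed. All libraries came from Bl/6 skin, and no genotype or allele other than the strain is given.

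The organoid libraries formed 3 stages, each harvested on day 7. The unpassaged stage (5 libraries, 1 per medium) had forskolin with TgfB inhibitor, TgfB inhibitor alone, forskolin alone, forskolin with Fgf1, or forskolin with Fgf10. The early stage (within 3 months, passages 7 to 12) had forskolin with TgfB inhibitor (n = 4), TgfB inhibitor alone (n = 2), forskolin with Fgf1 (n = 2) and forskolin with Fgf10 (n = 4). The late stage (within 6 months, passages 23 to 30) had forskolin with Fgf1 only (n = 6). The tissue groups held 3 libraries each: interfollicular epidermis sorted for Itga6 and Sca1, follicles in anagen (the growth phase), and follicles of anagen and telogen (the resting phase) mixed. Forskolin raises cyclic AMP, Fgf1 and Fgf10 are fibroblast growth factors, and the TgfB inhibitor blocks signalling of transforming growth factor beta. Neither the ages of the mice nor the separate animals behind the replicates are given, so p-values measure only the spread between these libraries, which may be technical.

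Fibroblasts of the dermis make the fibrillar collagens: Col1a1 and Col1a2 encode the chains of type I collagen and Col3a1 the chain of type III collagen. Decorin (Dcn) and lumican (Lum) are small proteoglycans that bind collagen fibrils, Col6a1 encodes a chain of the microfibrillar type VI collagen, and Sparc is a secreted glycoprotein that binds collagen. Vimentin (Vim) is the intermediate filament protein of mesenchymal cells, and Pdgfra is a receptor for platelet-derived growth factors that is widely used to mark dermal fibroblasts. Keratinocytes lie on a basement membrane to which they contribute collagens of their own, among them those encoded by Col17a1 and Col7a1.

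Promoters are shown for 3 members: Col1a2 and Col3a1, which differed together between the follicle groups, and Sparc, which was lower in organoids with the TgfB inhibitor. Each window runs from 250 bases before the start of the RefSeq transcript to 50 after it (RefSeq, GRCm38.p6), and 6 of the 9 members had an entry. Capitals mark 3 motifs on either strand, of which the first is CCAAT. The other motifs are the letters TATAAA of the core promoter element named for them, and CAGACA. Matches on the opposite strand appear as their reverse complements. The windows are chr6:4505368-4505667 on the plus strand for Col1a2, chr1:45311288-45311587 on the plus strand for Col3a1 and chr11:55420031-55420330 on the minus strand for Sparc.
Col1a2: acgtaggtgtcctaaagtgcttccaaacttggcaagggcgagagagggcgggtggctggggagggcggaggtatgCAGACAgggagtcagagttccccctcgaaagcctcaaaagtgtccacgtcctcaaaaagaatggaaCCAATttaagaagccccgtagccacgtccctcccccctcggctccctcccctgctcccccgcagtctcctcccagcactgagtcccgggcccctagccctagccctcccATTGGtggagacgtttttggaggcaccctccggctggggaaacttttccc
Col3a1: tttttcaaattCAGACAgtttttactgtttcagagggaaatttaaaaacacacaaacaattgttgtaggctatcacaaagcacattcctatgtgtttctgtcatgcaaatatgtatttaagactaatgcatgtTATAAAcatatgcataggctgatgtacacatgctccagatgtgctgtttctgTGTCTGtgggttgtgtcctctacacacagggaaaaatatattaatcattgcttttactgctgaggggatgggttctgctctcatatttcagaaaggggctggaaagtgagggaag
Sparc: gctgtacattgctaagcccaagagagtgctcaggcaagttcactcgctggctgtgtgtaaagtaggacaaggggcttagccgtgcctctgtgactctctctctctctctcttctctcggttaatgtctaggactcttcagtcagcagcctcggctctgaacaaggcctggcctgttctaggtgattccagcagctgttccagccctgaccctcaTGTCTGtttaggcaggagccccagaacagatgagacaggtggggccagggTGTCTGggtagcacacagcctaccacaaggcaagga
CAGACA, the core of the Smad-binding CAGA box, was present in 3 of the 6 member promoters and in 20.9% of 32544 mouse promoters of the same length. Those 3 are the ones printed. The windows of Vim and Col6a1, which were also lower in anagen follicles, and of Pdgfra held no CAGACA and are not printed. The part of these motifs in any level was not tested. CCAAT was present in 2 of 6 and in 37.4% of all, TATAAA in 2 of 6 and in 13.6%, and TGACTCA, the letters of an AP-1 site, in 1 of 6 and in 5.19%. The TGACTCA match was in the Col6a1 window, and none of these matches overlapped another in the 3 windows printed. In the GENCODE M21 annotation of GRCm38 all 9 members are protein-coding genes, with Dcn and Lum neighbours on chromosome 10 (97479609 to 97518143 and 97565128 to 97572703).

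Total counts without spike-ins ranged over libraries from 412582 to 3351435 (median 1505354), with 10511 to 15648 genes detected, and sorted epidermis was shallow at 469839 to 739531. Levels below are counts per 1000000 of that total (CPM), while fold changes come from edgeR's quasi-likelihood test with TMM-scaled totals and Benjamini-Hochberg adjustment over all genes tested, called at 0.05. TMM scaling raised the levels of mixed follicles (Sparc averaged 1059 CPM with TMM-scaled totals and 675 CPM without), so fitted changes against them exceed the CPM ratios. By the genes they list, the libraries belonged to 11 counting tables, and no table held more than 1 kind of tissue or tissue together with organoids, so table and tissue cannot be told apart. Late organoids shared no table with unpassaged or early ones, so late stage and table cannot be told apart either. Late replicate 4 stood apart from the other late libraries, with Krt4 at 38938.5 CPM against at most 288 CPM in the other 5. Markers fitted the tissue labels: 10 basal keratinocyte genes summed to 32151 to 36624 CPM in epidermis, and 10 follicle keratinocyte genes to at most 25.7 CPM there and at least 11442 CPM in follicles. Lum (6 counts in all 32 libraries, from 3 follicle libraries) and Pdgfra (48 counts, at most 4.97 CPM in a library) passed no filter on low counts and were not tested.

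**Figure D1:**
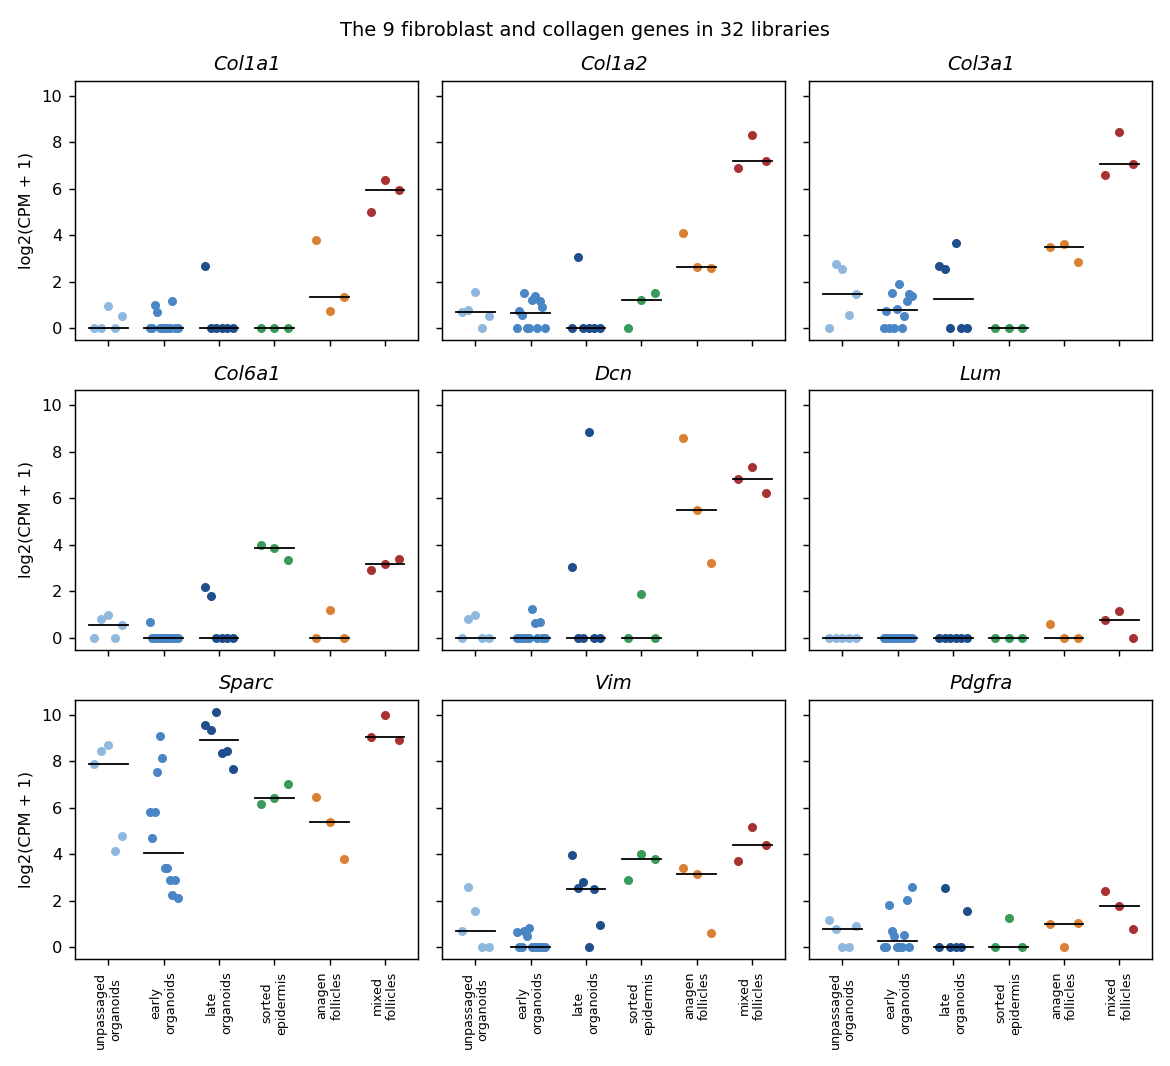
Levels of the 9 genes in all 32 libraries, as log2(CPM + 1) on the vertical axis, by stage or tissue on the horizontal axis; each point is 1 library and each line the group's median. The 3 mixed follicle libraries lie above all others for Col1a1, Col1a2 and Col3a1, Sparc has counts in all 32 libraries, and Dcn is high in 1 late organoid library.

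Anagen follicles had far less of the type I and type III collagen transcripts than mixed follicles. Col1a2 was at 16.04, 5.26 and 5.13 CPM in anagen follicles and at 118, 314 and 147 CPM in mixed follicles. Col3a1 was at 10.2, 11.2 and 6.16 CPM in anagen follicles, against 96.0, 343 and 131 CPM in mixed follicles. The groups did not overlap for either gene, and the second mixed library was the highest of all 32 for both. Col1a2 was lower by a log2 fold change of -5.06 (SE 0.70, edgeR adjusted p = 0.000172) and Col3a1 by one of -4.92 (SE 0.89, edgeR adjusted p = 0.00229). Col1a1 was at 13.1, 0.658 and 1.54 CPM in anagen follicles and at 30.8, 83.2 and 60.6 CPM in mixed follicles, a change of -4.24 (SE 0.86, edgeR adjusted p = 0.00649; DESeq2 adjusted p = 0.22). In these bulk samples, fewer fibroblasts and less RNA per fibroblast cannot be told apart.

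Of the 7 members tested between the follicle groups, 6 were lower in anagen follicles and Dcn was not called, while 6.63% of the 10843 genes tested were called and 5.42% were called lower. The members were chosen with earlier results of these data known, and the filter keeps a gene that is high in 1 group only. This count of members and the like counts below are therefore descriptions. Sparc was at 88.0, 40.1 and 12.8 CPM in anagen follicles and at 529, 1015 and 479 CPM in mixed follicles (log2 fold change -4.59, SE 0.61, edgeR adjusted p = 0.000103). Col6a1 had 2 counts over the anagen libraries and 49 over the mixed ones, which made it 22.1-fold lower (95% exact counting interval 5.80 to 187; edgeR adjusted p = 0.00967). Vim, at 9.72, 7.89 and 0.513 CPM in anagen follicles and 12.2, 35.2 and 20.2 CPM in mixed follicles, had the smallest change of the 6 (-2.68, SE 0.73, edgeR adjusted p = 0.0340). Leaving out any 1 of the 3 anagen libraries, or mixed replicate 2 or 3, cost Vim its call (edgeR adjusted p 0.0626 to 0.143), and leaving out anagen replicate 1 did so for Col6a1 (0.0561). The 2 groups of libraries overlapped for none of the 6. That is a description only, since the share of all genes tested without such overlap is not given here. The median log2 fold change was -4.59 over the 7 tested members and 0.09 over all genes tested.

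Decorin was not called between the follicle groups, and its anagen libraries differed widely. Dcn was at 382, 44.1 and 8.21 CPM in anagen follicles and at 111, 162 and 74.4 CPM in mixed follicles. Anagen replicate 1 lay above every mixed library and anagen replicates 2 and 3 below them. The fitted change was -0.54 (SE 1.70, edgeR adjusted p = 0.898). In counts, the 3 anagen libraries held 23.8, 8.38 and 1.60 Dcn counts per Col1a2 count, whereas the mixed libraries held 0.939, 0.516 and 0.505. Sparc counts per Col1a2 count were at 5.48, 7.63 and 2.50 in anagen follicles and 4.48, 3.23 and 3.25 in mixed follicles. These ratios are descriptions, and no test was made of them. Lum, whose product is related to decorin, had 1, 0 and 0 counts in anagen follicles and 1, 4 and 0 counts in mixed follicles. The receptor gene Pdgfra was at 0.972, 0 and 1.03 CPM in anagen follicles and at 4.30, 2.39 and 0.722 CPM in mixed follicles, which overlapped.

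**Figure D2:**
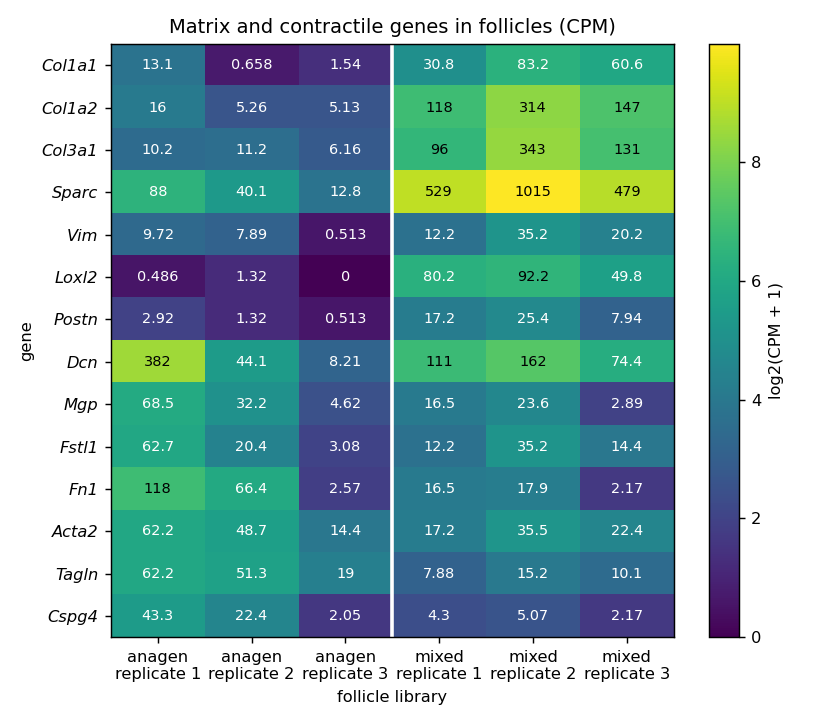
CPM of 14 matrix and contractile genes (rows) in the 3 anagen (left) and 3 mixed (right) follicle libraries; numbers are CPM and colour is log2(CPM + 1). The collagens, Sparc and Loxl2 are higher in all 3 mixed libraries, while Dcn, Mgp, Fstl1 and Fn1 are highest in anagen replicate 1; apart from Vim, the genes below Sparc were picked for display after their values were seen.

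Other genes of fibroblast matrix followed the collagens in part. Of 21 such genes 12 were tested, and 3 were lower in anagen follicles and none higher (median log2 fold change -1.31), where 5.42% of all genes tested were called lower. The 3 were Col6a2, the partner chain of Col6a1 (-6.45, SE 1.16, edgeR adjusted p = 0.00161), Postn, the matrix protein periostin (-3.91, SE 0.96, edgeR adjusted p = 0.0162), and Mfap5, a microfibril protein (-4.01, SE 0.86, edgeR adjusted p = 0.0188). Of the 12 tested genes of collagen synthesis and processing 1 was called, Loxl2, a lysyl oxidase that crosslinks collagen. Loxl2 was at 0.486, 1.32 and 0 CPM in anagen follicles and at 80.2, 92.2 and 49.8 CPM in mixed follicles (-7.49, SE 1.05, edgeR adjusted p = 0.000333). Serpinh1, the collagen chaperone, was at 53.9, 21.0 and 4.62 CPM in anagen follicles and 46.6, 53.4 and 42.6 CPM in mixed follicles and was not called.

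Markers of red blood cells and immune cells moved beside these genes, and those of some other cells did not, in a comparison that called 5.42% of all genes tested lower. The 5 red blood cell genes summed to 2.05 to 5.92 CPM in anagen follicles and 55.2 to 180 CPM in mixed follicles, and all 3 tested were lower in anagen follicles. Hba-a2, Hbb-bs and Hbb-bt had no count in anagen follicles. The 12 immune cell genes summed to 11.3 to 32.2 CPM in anagen follicles and 74.5 to 181 CPM in mixed follicles, with 3 of 8 tested lower and 6 of the 12, Ptprc among them, at 0 in anagen follicles. The 10 follicle keratinocyte genes summed to 50882 to 56511 CPM in anagen follicles and 11442 to 34119 CPM in mixed follicles. The 10 smooth muscle and pericyte genes summed to 38.5 to 171 CPM in anagen follicles and 34.4 to 66.5 CPM in mixed follicles, with none of 3 tested called. The melanocyte gene Dct was at 97.7, 82.9 and 4.62 CPM in anagen follicles and 32.2, 45.1 and 26.0 CPM in mixed follicles. Adipocyte genes were divided. Fabp4 was at 731 to 1212 CPM in anagen and 510 to 770 CPM in mixed follicles, and Lpl at 0.513 to 1.97 and 12.2 to 23.9 CPM. The part of these cells in the lower fibroblast transcripts was not tested.

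Sorted epidermis held almost no fibrillar collagen transcript. Col1a1, Col3a1 and Lum had 0 of 1749946 counts over the 3 libraries, which allows up to 1.71 CPM each (3 counts, counting error only). Lum was listed for none of these libraries and Col3a1 only for replicate 2, and missing genes were counted as 0. Col1a2 and Dcn had 2 counts each. Of the 7 members tested against mixed follicles, 6 were lower in epidermis, where 30.3% of 10843 genes were called and 18.5% were called lower. Col3a1 was at least 139-fold lower in epidermis (edgeR adjusted p = 0.000103) and Col1a1 at least 38.6-fold lower (edgeR adjusted p = 0.000386), both against 3 counts over the epidermis group. Col1a2 was 203-fold lower by counts (95% exact counting interval 56.1 to 1678; edgeR adjusted p = 1.49e-05). The calls of Dcn (edgeR adjusted p = 0.0494) and Vim (-2.04, SE 0.75, edgeR adjusted p = 0.0469) were slight: Dcn lost its call without any 1 of the 6 libraries (adjusted p 0.0773 to 0.133) and Vim without any 1 of them but mixed replicate 1 (0.0864 to 0.149).

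Col6a1, Sparc and Vim were the members that epidermis did hold. Col6a1 was at 14.9, 13.5 and 9.25 CPM in sorted epidermis (7, 10 and 5 counts) and at 6.45, 8.06 and 9.38 CPM in mixed follicles, which were not called apart (-0.50, SE 0.82, edgeR adjusted p = 0.685). Against anagen follicles, with 0, 1.32 and 0 CPM, Col6a1 was higher in epidermis (34.7-fold by counts, 95% exact counting interval 8.54 to 305; edgeR adjusted p = 0.00615). Its partner Col6a2 had 1 count in epidermis. Sparc was at 70.2, 83.8 and 129 CPM in epidermis, below every mixed follicle library (-3.89, SE 0.60, edgeR adjusted p = 0.000143). Vim was at 6.39, 14.9 and 12.9 CPM in epidermis and overlapped both follicle groups.

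Against anagen follicles, 1 of the 7 tested members was higher in epidermis (Col6a1) and 2 were lower, where 34.2% of genes were called, 14.8% higher and 19.4% lower, and the median of all genes was -0.15. The 2 lower ones were Col3a1, at least 5.28-fold lower (edgeR adjusted p = 0.0219), and Col1a2, 8.07-fold lower by counts (95% exact counting interval 2.12 to 68.5; edgeR adjusted p = 0.0259). Both calls were lost without any 1 epidermis library (adjusted p 0.0531 to 0.0869), and that of Col1a2 also without anagen replicate 1 (0.0827). Col1a1 (edgeR adjusted p = 0.0516) and Dcn (0.0607) fell short of the threshold; without anagen replicate 2 Col1a1 was called (0.0283). Sparc (0.70, SE 0.54, edgeR adjusted p = 0.344) and Vim (0.63, SE 0.79, edgeR adjusted p = 0.566) were not called.

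**Figure D3:**
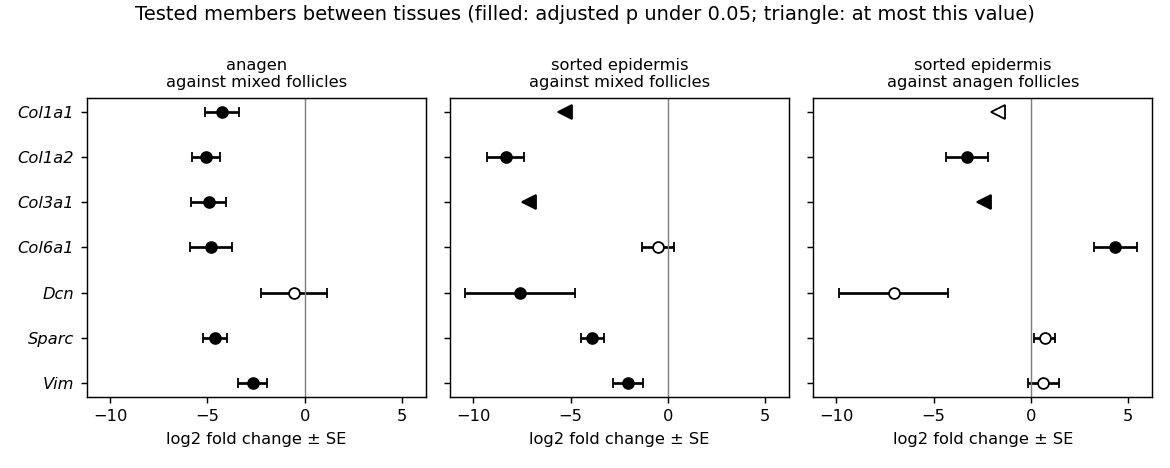
Log2 fold change with its SE for the 7 tested members (rows) in 3 tissue comparisons (panels); filled symbols have an edgeR adjusted p under 0.05, and a triangle is an upper limit set by 3 counts where epidermis had no count. In the first panel 6 of 7 lie to the left of 0 and filled, and Col6a1 alone lies to the right of 0 and filled in the third.

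Epidermis also held other genes that are commonly listed for fibroblasts. Thbs2, a matrix glycoprotein, averaged 80.3 ± 18.2 CPM in epidermis and 4.28 ± 4.32 CPM in mixed follicles (SD, n = 3 each; 3.10, SE 0.86, edgeR adjusted p = 0.0111). Postn was at 70.2, 83.8 and 85.1 CPM in epidermis, above the 3 anagen libraries at 2.92, 1.32 and 0.513 CPM (5.14, SE 0.97, edgeR adjusted p = 0.000641). Of the 11 fibroblast surface and transcription factor genes in the files, Pdgfrb, Twist1, Twist2, Prrx1, Cd248 and En1 had no count in epidermis. The other 5 had counts there: Ly6a, which encodes Sca1 and was used to sort these cells, Thy1, Lrp1, Dpp4 and Ebf1. Thy1 was at 27.7, 60.8 and 117 CPM in epidermis, above the 9.31 to 26.9 CPM of mixed follicles but not called (1.10, SE 0.61, edgeR adjusted p = 0.190). Dpp4 was lower in epidermis than in mixed follicles (-2.94, SE 0.79, edgeR adjusted p = 0.00928), the only 1 of 6 tested that was called. Of 12 tested fibroblast matrix genes, 1 was higher (Thbs2) and 6 were lower in epidermis than in mixed follicles, where 18.5% of all genes tested were called lower. The 12 immune cell genes summed to 396 to 747 CPM in epidermis and 74.5 to 181 CPM in mixed follicles. The part of immune cells in the levels of Col6a1, Sparc, Vim, Thy1 and the other genes of this paragraph was not tested.

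Organoids held few counts of Col1a1, Col1a2, Col6a1, Lum and Pdgfra. Over 23 organoid libraries with 35581405 counts in all, Col1a1 had 10 counts, Col1a2 20, Col6a1 7, Pdgfra 28 and Lum none. Col3a1 had 47 counts in 15 libraries and reached 11.7 CPM (9 counts) in late replicate 4. The next highest were 5.82 CPM (8 counts) in the unpassaged forskolin and Fgf10 library and 5.39 CPM (3 counts) in late replicate 1. Pdgfrb had no count in any organoid library and 3 counts over all 32, so its absence, like that of Lum, says little at this depth. Against mixed follicles, 6 of 7 tested members were lower in late organoids, where 39.7% of genes were called and 22.5% were called lower. Col1a2 was 507-fold lower by counts (95% exact counting interval 173 to 2464; edgeR adjusted p = 1.47e-07) and Col3a1 lower by a log2 fold change of -6.88 (SE 0.80, edgeR adjusted p = 8.08e-06). Col1a1 was 145-fold lower by counts (49.2 to 705), Col6a1 17.5-fold lower (5.64 to 87.6) and Vim lower by -3.11 (SE 0.63, edgeR adjusted p = 0.000854), while Dcn was not called. Late replicates 3 to 6 did not list Col1a1, Col1a2 or Col6a1, and replicates 3 and 6 did not list Col3a1. These genes were counted there as 0.

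Col6a1 was lower in organoids of all 3 stages than in epidermis, and Vim in unpassaged and early ones. Vim was at 0.612, 5.09, 1.94, 0 and 0 CPM in the unpassaged libraries with forskolin, forskolin and Fgf10, forskolin and Fgf1, forskolin and inhibitor, and inhibitor alone. It did not pass 0.781 CPM in the 12 early libraries, all 6 with the inhibitor being at 0, and was at 14.4, 4.85, 6.08, 0, 4.64 and 0.952 CPM in late organoids. The unpassaged and early libraries lay below all 3 epidermis libraries, and late organoids overlapped them. Against epidermis, Vim was lower in early organoids (-4.90, SE 0.83, edgeR adjusted p = 2.23e-05) and in unpassaged organoids (-2.88, SE 0.86, edgeR adjusted p = 0.0092), a call that was lost without epidermis replicate 2 (0.0605). In late organoids it was not called (-1.07, SE 0.73, edgeR adjusted p = 0.322). Col6a1 was lower in all 3 stages: 35.0-fold by counts in unpassaged organoids (95% exact counting interval 10.5 to 182), 260-fold in early (42.0 to 10729.5) and 27.5-fold in late (8.26 to 143), with edgeR adjusted p of 5.38e-05, 7.04e-08 and 0.0061. Among early libraries Col6a1 was listed only for Fgf10 replicate 1 and Fgf1 replicate 1. It was counted as 0 in the others and in late replicates 3 to 6, which did not list it. The early and late fold values rest in part on these zeros. Of 7 tested members, Col6a1 and Vim were the 2 called, both lower, in unpassaged (36.3% of genes called, 17.7% lower) and in early organoids (41.2% called, 20.5% lower).

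Sparc was the only member with counts in all 23 organoid libraries, and its level differed by medium. With the inhibitor, unpassaged organoids had 16.4 CPM (forskolin and inhibitor) and 26.1 CPM (inhibitor alone). Without it they had 232 CPM in forskolin, 416 CPM with Fgf1 and 345 CPM with Fgf10. The inhibitor libraries lay below all others, and the log2 fold change of the 2 inhibitor libraries over the 3 without was -4.12 (SE 0.33, edgeR adjusted p = 0.000509). Sparc was the only member that passed the filter there, where 7.17% of 8657 genes were called and 4.51% were called lower.

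In early organoids the libraries with the inhibitor were again below those without it. Sparc was at 9.54, 9.66, 6.42 and 3.70 CPM with forskolin and inhibitor and at 6.36 and 3.32 CPM with inhibitor alone. It was at 540 and 276 CPM with forskolin and Fgf1 and at 55.1, 24.8, 55.2 and 182 CPM with forskolin and Fgf10. All 6 inhibitor libraries lay below all 6 others. Forskolin with inhibitor against forskolin with Fgf10 gave a log2 fold change of -3.54 (SE 0.61, edgeR adjusted p = 0.00784), in a comparison that called 0.575% of 9919 genes, 0.313% lower. These media differ in Fgf10 as well as in the inhibitor, and without replicate 3 of forskolin with inhibitor the edgeR adjusted p was 0.0618. Forskolin with inhibitor and inhibitor alone were not called apart (0.53, SE 0.84, edgeR adjusted p = 0.987). That comparison called 0 of 9919 genes (0%), with 621 at an unadjusted p under 0.05, and DESeq2 called 24. Both Fgf1 libraries lay above all 4 Fgf10 libraries, but the log2 difference of 2.28 (SE 0.60) missed the threshold (edgeR adjusted p = 0.512). Fgf1 against Fgf10 called 0 genes (0%) in edgeR, with 331 at an unadjusted p under 0.05, and 15 in DESeq2; without the Fgf10 library at 182 CPM, Sparc was called (3.12, edgeR adjusted p = 0.0483).

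**Figure D4:**
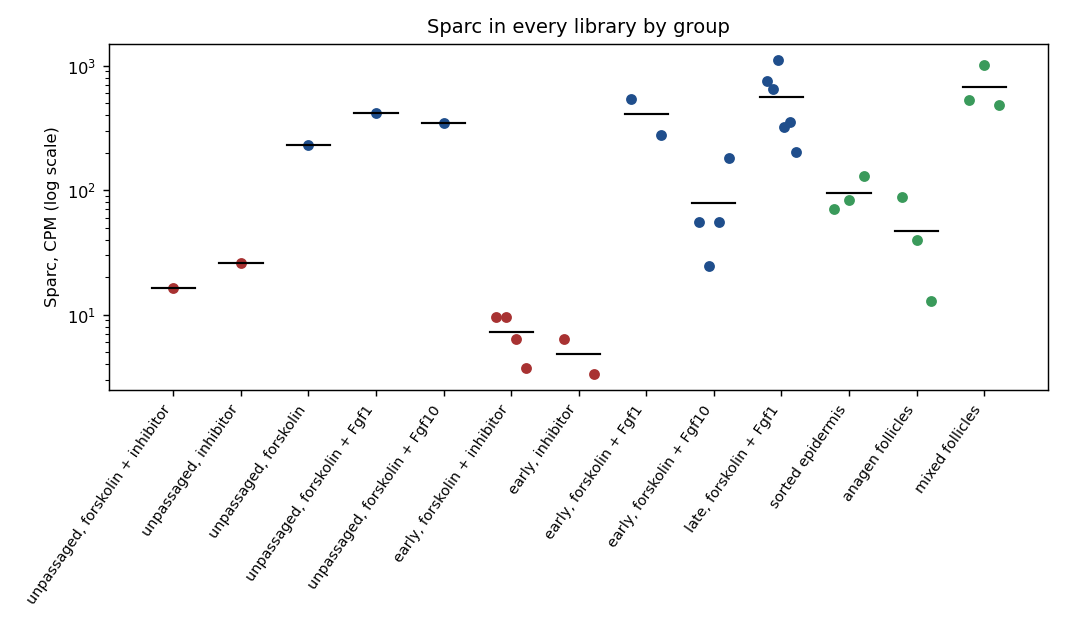
Sparc in CPM on a log scale in each of the 13 groups; each point is 1 library, lines are group means, red points are organoids with TgfB inhibitor, blue ones other organoids and green ones tissue. The 8 inhibitor libraries lie between 3.32 and 26.1 CPM, below every other organoid library but 1, the early Fgf10 library at 24.8 CPM.

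In Fgf1 medium the Sparc levels of the 3 stages overlapped. Sparc was at 416 CPM in the unpassaged library, at 540 and 276 CPM in early organoids, and at 751, 647, 1116, 320, 350 and 202 CPM in late organoids. Late and early Fgf1 organoids overlapped and were not called apart (0.34, SE 0.60, edgeR adjusted p = 0.768), in a comparison that called 6.72% of genes. Over all 4 shared media, early against unpassaged organoids gave -1.34 (SE 0.40, edgeR adjusted p = 0.0404), where 11.8% of 8890 genes were called and 6.13% called lower. That call was lost without any 1 of 7 of the 16 libraries (adjusted p 0.0610 to 0.316), which were the unpassaged Fgf10 and both unpassaged inhibitor libraries, early Fgf10 replicate 3, early Fgf1 replicate 2 and both early libraries with inhibitor alone, and within the libraries of a single counting table (-1.03, adjusted p = 0.480). By medium, in an edgeR fit added after these values were seen, the change was -1.99 (SE 0.62, edgeR adjusted p = 0.148) with Fgf10, -0.013 (SE 0.75, edgeR adjusted p = 0.995) with Fgf1 and -1.52 (SE 0.64, edgeR adjusted p = 0.238) with inhibitor. Fgf10 and Fgf1 were not called apart in that fit (-1.98, SE 1.03, edgeR adjusted p = 1). Passaging with the inhibitor against without it was not called apart either (-0.29, SE 0.87, edgeR adjusted p = 0.971; 0.0337% of genes called).

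Late organoids had more Sparc than epidermis and anagen follicles. All 6 late libraries lay above the 3 epidermis libraries (2.73, SE 0.53, edgeR adjusted p = 0.00153) and above the 3 anagen libraries (3.42, SE 0.55, edgeR adjusted p = 9.27e-05). They overlapped mixed follicles, where the fitted change of -1.17 (SE 0.44, edgeR adjusted p = 0.0433) was lost under other scalings (adjusted p 0.0509 and 0.0972) and without mixed replicate 2 or 3 or late replicate 2, 4, 5 or 6 (0.0516 to 0.148). In unpassaged (1.37, SE 1.25, edgeR adjusted p = 0.414) and early organoids (0.36, SE 1.09, edgeR adjusted p = 0.826), with the media of a stage pooled, Sparc was not called apart from epidermis. Against epidermis 2 of 7 tested members were called in late organoids, Sparc higher and Col6a1 lower, with 21.8% of genes called, 12.2% higher and 9.53% lower. Against anagen follicles 3 of 7 were called (45.8% of genes called, 21.2% higher and 24.6% lower): Sparc higher, and Col1a1 (12.3-fold by counts, 95% exact counting interval 3.83 to 62.7; edgeR adjusted p = 0.0253) and Col1a2 (20.2-fold, 6.53 to 101; edgeR adjusted p = 0.00116) lower, both with libraries that overlapped. The Col1a1 call was lost without anagen replicate 1 (adjusted p = 0.385), without late replicate 3 (0.0836) and in DESeq2 (0.262).

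Dcn in late organoids came from 1 library. It was at 458 CPM (352 counts) in late replicate 4, at 7.19 CPM (4 counts) in replicate 1 and at 0 in the other 4, while the 17 unpassaged and early libraries held 5 Dcn counts in all. In the same library Col3a1 was at 11.7 CPM (9 counts), the highest of the organoid libraries. Col1a1 and Col1a2 were not listed for it and were counted as 0 of 768443. Both its Dcn and its Col3a1 level lay above those of all 3 anagen libraries, and its Col1a1 and Col1a2 levels below them. With this library Dcn was not called between late organoids and mixed follicles (-1.42, SE 1.44, edgeR adjusted p = 0.459) or anagen follicles (-0.88, SE 1.45, edgeR adjusted p = 0.649). Without it Dcn was lower in late organoids in both (-7.87, edgeR adjusted p = 4.80e-05, and -7.33, 7.64e-05), and Col3a1 was lower than in anagen follicles (-3.31, 0.00717, against -1.96, 0.0811 with it). The same library held Krt4 at 38938.5 CPM, Krt13 at 62.5 CPM and Krt36 at 128 CPM, all genes named after their values were seen; their part in the Dcn level was not tested.

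**Figure D5:**
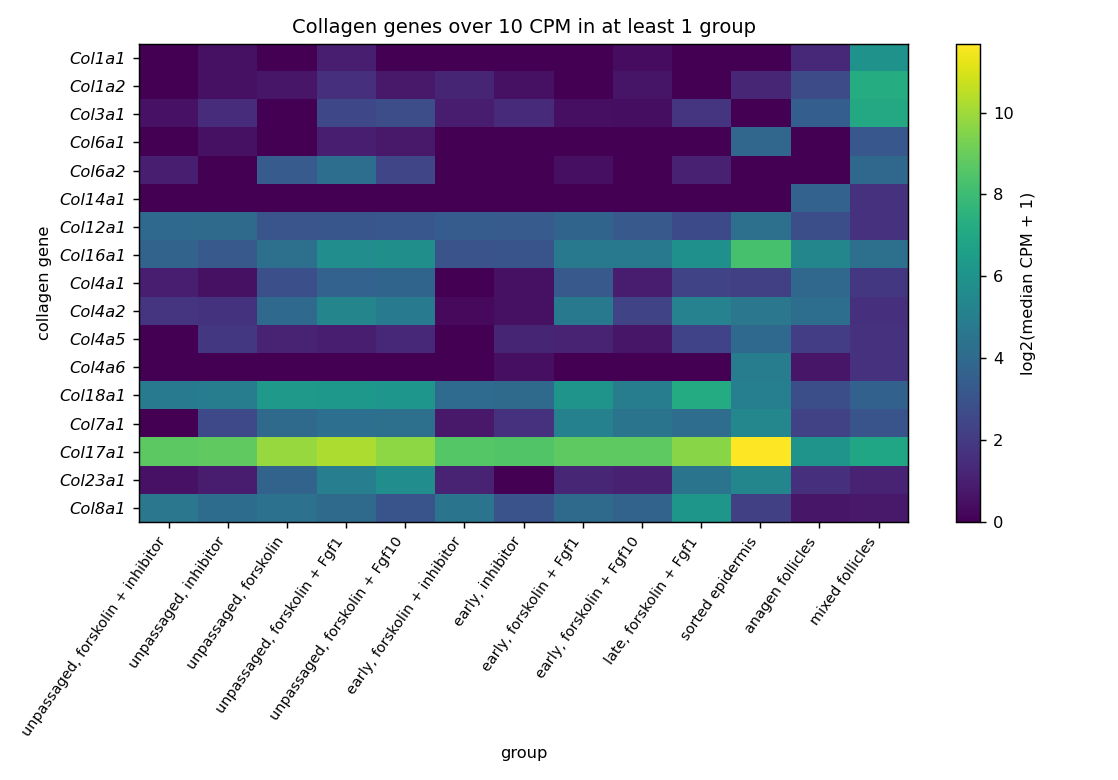
Median level, as log2(CPM + 1), of the 17 collagen genes (rows) over 10 CPM in the median library of at least 1 of the 13 groups (columns). The type I and III rows are highest in mixed follicles, and Col17a1 is brightest in sorted epidermis at a median of 3267 CPM.

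Organoids expressed collagens, but little of types I and III. Of 44 collagen genes in the files, 17 passed 10 CPM in the median library of a group. Mixed follicles had 7 of them, with Col1a1, Col1a2, Col3a1 and Col6a2 among these, and late organoids had 7 with none of those 4. Col16a1, Col17a1 and Col18a1 were in both sets, and Col6a2 passed 10 CPM in the unpassaged forskolin and Fgf1 library. The late set was Col17a1, Col18a1, Col8a1, Col16a1, Col4a2, Col23a1 and Col7a1, whose medians were 777, 143, 70.6, 58.0, 35.6, 21.4 and 16.9 CPM. Sorted epidermis passed 10 CPM for 10 collagens, with Col17a1, a collagen of hemidesmosomes, at a median of 3267 CPM and Col16a1 at 306 CPM. Of 20 tested collagen genes, 3 were higher and 4 lower in late organoids than in epidermis, where 12.2% of all genes tested were called higher and 9.53% lower. Col17a1 was among the lower (-1.56, SE 0.49, edgeR adjusted p = 0.029), at 955 ± 522 CPM in late organoids (SD, n = 6) and 3155 ± 863 CPM in epidermis (SD, n = 3).

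Other matrix genes were lower with the inhibitor too. In unpassaged organoids 8 of 10 tested collagen genes were lower with the inhibitor and none higher (median -2.54, against -0.0033 over all genes tested). Of all genes tested there, 4.51% were called lower. Neither inhibitor medium held Fgf1 or Fgf10, 1 of the 2 lacked forskolin, and each medium had 1 library. That pooled comparison therefore does not isolate the inhibitor. Col4a2, a basement membrane collagen, averaged 2.33 ± 0.115 CPM with the inhibitor (SD, n = 2) and 27.1 ± 12.1 CPM without (SD, n = 3), a change of -3.63 (SE 0.52, edgeR adjusted p = 0.00519). Of 10 tested basement membrane genes 7 were lower, of 11 genes of collagen synthesis and processing 5 (Serpinh1, P4ha1, P4ha2, Plod1 and Plod2), and of 6 other fibroblast matrix genes 3 (Fbln2, Serpinf1 and Col6a2), with none higher in any. Serpinh1 was at 23.1 and 51.7 CPM with the inhibitor and 112, 173 and 241 CPM without (-2.38, SE 0.39, edgeR adjusted p = 0.00877). In early organoids, where forskolin with inhibitor and forskolin with Fgf10 differ in Fgf10 too and 0.313% of all genes tested were lower, 2 of 13 tested genes of collagen synthesis and processing, 1 of 9 of basement membrane and 0 of 8 of other fibroblast matrix were lower. They were Serpinh1 (-3.28, SE 0.62, edgeR adjusted p = 0.0177), the procollagen protease gene Bmp1 (-2.12, SE 0.44, edgeR adjusted p = 0.0305) and Col7a1, the anchoring fibril collagen (-4.91, SE 0.55, edgeR adjusted p = 0.000128). Serpinh1 was at 1.23 to 2.72 CPM in the 4 libraries of forskolin with inhibitor, below the 36.3 and 30.7 CPM of inhibitor alone, and was not called between these media.

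Late organoids differed from epidermis in matrix genes that fibroblasts also express. Of 12 tested genes of fibroblast matrix, 4 were higher (Fbln1, Fbln2, Serpinf1 and Col5a1) and Postn was lower (median 2.26, against 0.04 over all genes tested). Of all genes tested there, 12.2% were called higher and 9.53% lower. Fbln1, which encodes fibulin 1, averaged 127 ± 69.4 CPM in late organoids (SD, n = 6) and 2.94 ± 1.22 CPM in epidermis (SD, n = 3), a change of 5.58 (SE 0.60, edgeR adjusted p = 7.79e-06). It was also higher in late than in early Fgf1 organoids (2.94, SE 0.51, edgeR adjusted p = 0.00368), though no counting table held both stages. Of 12 tested genes of collagen synthesis and processing 3 were higher than in epidermis, all of enzymes that hydroxylate collagen: P4hb (1.82, SE 0.44, edgeR adjusted p = 0.00712), P4ha2 (5.28, SE 0.89, edgeR adjusted p = 0.000478) and Plod2, at least 32.9-fold higher (edgeR adjusted p = 0.00109). Of the 11 fibroblast surface and transcription factor genes in the files, Pdgfrb, Prrx1, Cd248 and En1 had no count in late organoids and the other 7 had counts. Of 6 tested, Twist2 was higher in late organoids than in epidermis (at 0 to 10.9 CPM in late organoids and 0 in epidermis; edgeR adjusted p = 0.0271) and Thy1 lower (2 counts in late organoids, all in replicate 4, and 121 in epidermis; edgeR adjusted p = 1.2e-05). Twist1 was at 26.7 and 21.0 CPM in late replicates 2 and 6 with at most 1 count in each of the other 4, and was not called. The 12 immune cell genes summed to 12.4 to 194 CPM in late organoids and 396 to 747 CPM in epidermis, with 6 of 8 tested lower.

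Each of 3 members had a different set of closest genes by pattern over the 13 group means of log2(CPM + 1), among 7866 genes. Col1a2 was closest to Pcp4 (Pearson r = 0.980), Krtap19-2, Krtap19-4, Serpina3j and Wfdc17, all highest in mixed follicles. Sparc was closest to Fam101b (r = 0.884), Nav2, Nt5e, Tcf7l1 and Arl4c, and Vim to Rpl39 (r = 0.934), Mgll, Fbxo32, Apopt1 and Rpl37a. These are descriptions over 13 groups, of which 5 are single libraries.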

How the data were processed

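Total RNA was made into CEL-seq2 libraries, per the labels' protocols, which speak of sorted cells. Of the sample titles, only those of epidermis name a sort. Organoid titles say bulk cells, and follicle titles name no sort. The deposited files hold whole-number counts per gene name, 1 file per library; the submitters' processing notes name the aligner BWA 0.6.2-r126 and the build mm10, and the counting tool, its annotation and whether unique molecular identifiers were collapsed remain not given in the sources used here. Genes missing from a file were counted as 0, and 14 spike-in names were left out. The members and gene lists were chosen with earlier results of these data known.

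CPM is the count per 1000000 of the library total. Fold changes came from edgeR 4.0.16 (R 4.3.3, limma 3.58.1) with TMM scaling, genes kept by filterByExpr (minimum count 10, minimum total 15), and Benjamini-Hochberg adjustment over all genes tested in a fit, called at 0.05. Tissue and Fgf1 organoids (17 libraries) shared 1 fit, as did the passaged organoids (18) and all 32 libraries by stage; unpassaged media were replicates of each other with or without inhibitor, and passaging was fitted with medium as a term. The filter for the passaging fit was grouped by stage after the fit grouped by stage and medium had been seen (Sparc -1.35, adjusted p = 0.0372, 1136 genes called, against -1.34, 0.0404 and 1051). Alternatives were RLE and upper quartile scaling, no filter, DESeq2 1.42.0, 2-group fits, a replicate block and leaving out each library. A group with no count was set to 3 counts over its summed total; intervals are exact 95% binomial ones on summed counts. Both cover counting error only. Replicates differed beyond sampling noise (chi-square per degree of freedom 3.47 to 69.5), so none was merged. Replicate numbers were not used as pairs, since in no comparison of at least 3 pairs did the deviations of every same-numbered pair correlate over 0.1. The text names all 9 members, of each other list genes called where 5 or fewer were called or the 4 highest in mean CPM, all collagens over 10 CPM in a group's median library, and the 5 genes closest in pattern to Col1a2, Sparc and Vim (those over 20 CPM in a group mean). The fits were tested on simulated data, with the same spread for every gene and with changes set only in well-counted genes. That test does not bear on members with few counts.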

Additional observations from a re-analysis of the deposited data

Results flagged for a closer look

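Of 6 pairs of a member and a group of 4 to 10 libraries that could be tested for a sample far from the others, 1 stood out. Dcn was at 458 CPM in late replicate 4, with the nearest other late library at 7.19 CPM, a gap of 0.984 of the group's whole range. By chance about 1 in 20 such groups would be marked. Without that library the late mean was 1.44 ± 3.21 CPM (SD, n = 5).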

How the results depend on the processing

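The alternatives made 52 fitted member changes lose their call and 15 gain one, and turned the sign of 19 that were called in neither setting; unless a value is given, the cause was not tested.

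In late organoids against anagen follicles Vim was at 0.23 with the replicate block, and with libraries left out in turn Col6a1 ran from -0.95 to 2.69 and Dcn from -7.33 to 1.28. Against epidermis, late organoids ran from 0.00 to 3.23 for Col1a1 and -0.27 (without replicate 4) to 9.65 for Dcn, unpassaged organoids from -2.25 to 1.92 for Dcn, and early organoids from -2.62 to 1.48 for Dcn and -0.36 to 0.66 for Sparc. DESeq2 gave Col1a1 -0.21 in unpassaged and -0.019 in early organoids against epidermis. In epidermis against mixed follicles Col6a1 ran from -0.71 to 0.012. Sparc ran from -0.084 to 0.83 in late against early Fgf1 organoids, and from -1.50 to 0.47 for passaging with the inhibitor against without it. Dcn was at -0.60 with the replicate block in forskolin with inhibitor against inhibitor alone.

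With libraries left out in turn, members called numbered 4 to 6 (6 in full) in anagen against mixed follicles, 4 to 5 (6) in epidermis against mixed follicles, 1 to 4 (3) in epidermis against anagen follicles, 2 to 5 (3) in late organoids against anagen follicles, 5 to 6 (6) against mixed follicles and 1 to 2 (2) in unpassaged organoids against epidermis. They numbered 0 to 1 (1) in early against unpassaged organoids and in forskolin with inhibitor against Fgf10, and 0 to 1 (0) in Fgf1 against Fgf10. Without the filter members called were 5 (3) in epidermis against anagen follicles, 2 (1) with the inhibitor in unpassaged organoids and 1 (0) in late against early Fgf1 organoids. With only the 2 groups fitted, which tested fewer members, they were 1 (3) in epidermis against anagen follicles, 1 (2) in late organoids against epidermis and 1 (3) against anagen follicles. In early against unpassaged organoids 0 (1) were called within the counting table of the unpassaged organoids.

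Counts of all genes called moved too. With libraries left out in turn they ran from 398 to 662 in anagen against mixed follicles (719 in full), 1296 to 2549 in late organoids against epidermis (2361), 184 to 1257 in early against unpassaged organoids (1051), 0 to 5 for passaging with the inhibitor against without it (3), 148 to 690 with the inhibitor in unpassaged organoids (621), 17 to 47 in forskolin with inhibitor against Fgf10 (57), 0 to 16 against inhibitor alone (0), 0 to 6 in Fgf1 against Fgf10 (0) and 51 to 1091 in late against early Fgf1 organoids (667). Late organoids against epidermis gave 1376 with only the 2 groups (2361 in full). Early against unpassaged organoids gave 1663 without the filter and 233 within that table (1051), and the difference of passaging by inhibitor gave 103 without the filter and 17 in DESeq2 (3). The inhibitor in unpassaged organoids gave 1373 without the filter (621). Forskolin with inhibitor against Fgf10 gave 115 without the filter, 138 in DESeq2, 123 with only the 2 groups and 99 within the other early counting table (57). Forskolin with inhibitor against inhibitor alone gave 19 without the filter, 24 in DESeq2, 33 with the replicate block and 5 with only the 2 groups (0). Fgf1 against Fgf10 gave 3, 15 and 43 without the filter, in DESeq2 and with only the 2 groups (0), and late against early Fgf1 organoids gave 1137 in DESeq2 and 1 with only the 2 groups (667).

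With all 32 libraries scaled by TMM, mixed follicles averaged 1059 CPM for Sparc, 306 for Col1a2, 98.1 for Col1a1, 13.9 for Col6a1, 180 for Dcn and 36.8 for Vim; without the 50 most abundant genes Col6a1 averaged 9.78 CPM in mixed follicles and 16.3 CPM in epidermis. With the replicate block Dcn was called lower in epidermis than in anagen follicles (edgeR adjusted p = 0.000724) and in late organoids than in mixed (5.09e-05) and anagen follicles (0.000345) and early organoids than in epidermis (0.0459); Col3a1 was lower in late organoids than in anagen follicles (0.0223), and the calls of Sparc against mixed follicles (0.215) and Col1a1 against anagen follicles (0.146) in late organoids were lost. In the tissue fit late replicates 4 to 6 had no same-numbered partner, so the block takes up their levels. No paired analysis was possible for passaging and for unpassaged media because those groups share fewer than 2 replicate numbers. Depth limits the members with few counts: 3 counts correspond to 1.71 CPM over the epidermis libraries and 0.0843 CPM over all organoids.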

Other observations

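Within the anagen follicles, replicate 1 was the highest and replicate 3 the lowest for several matrix and contractile genes besides Dcn. Fn1, the gene of fibronectin, was at 118, 66.4 and 2.57 CPM in anagen replicates 1 to 3 and at 16.5, 17.9 and 2.17 CPM in mixed ones. Cspg4, a pericyte proteoglycan gene, was at 43.3, 22.4 and 2.05 CPM in anagen follicles and at 4.30, 5.07 and 2.17 CPM in mixed follicles. Tagln, of the contractile apparatus, was at 62.2, 51.3 and 19.0 CPM in anagen follicles and at 7.88, 15.2 and 10.1 CPM in mixed follicles, without overlap. None of the 3 genes was called between the groups, and they were singled out after their values were seen.

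Mgp, the gene of matrix Gla protein, had no count in any of the 17 unpassaged and early organoid libraries. In late organoids it was at 324, 121, 4.16, 33.8, 0 and 0 CPM, and in sorted epidermis at 2.13, 2.70 and 1.85 CPM. The 2 highest late libraries came from the same counting table, and no table held late organoids together with unpassaged or early ones. Twist2, a transcription factor gene of dermal fibroblasts, averaged 12.5 ± 9.99 CPM in early organoids (SD, n = 12) and 1.16 ± 1.37 CPM in unpassaged ones (SD, n = 4), and was called higher (log2 fold change 3.10, SE 0.61, edgeR adjusted p = 0.00478).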
